A study of Mus musculus with 8 samples.

Results

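In CLIP-seq of mouse embryonic stem cells (mES cells), 2492 of 7484 reproducible Flag-MBD6 regions (33.3%, 95% Wilson interval 32.2 to 34.4) carried no Flag-MBD5 peak. With equal numbers of peaks from each library there were 749 (16.7%). Without Flag-MBD5 replicate 1 there were 3178 (42.5%) and without replicate 2 there were 3226 (43.1%). By the rule, the number could not fall when a Flag-MBD5 library was left out. Without Flag-MBD6 replicate 1 there were 4169 (43.5%) and without replicate 2 there were 3852 (41.8%), where all peaks of the other library counted as regions. A reproducible region was the same-strand merge of Flag-MBD6 peaks that overlapped a peak of the other Flag-MBD6 library by at least 1 bp. The 2492 regions, named MBD6-only below, had no overlap on the same strand with any peak of either Flag-MBD5 library. The name describes peak calls and not the absence of MBD5 from an RNA. The remaining regions had a Flag-MBD5 peak in 1 library (1420 regions, 19.0%) or in both libraries (3572 regions, 47.7%). The members were chosen by the measured peak calls of the 4 libraries, so the strength of these regions is given as a description without a test.

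The series comprised 8 samples, 2 each of CLIP and of digested input for the Flag-MBD5 and the Flag-MBD6 line. Both lines were wild-type mES cells that stably overexpressed the human coding sequence of MBD5 or MBD6 with a 3×Flag tag under hygromycin selection, grown with LIF, CHIR99021 and PD0325901. The labels do not state the promoter or whether a line was a clone, and a Flag immunoprecipitation from cells without a tagged protein was not analysed here. The sample characteristics and the study's methods name a Flag antibody, whereas the extraction protocol names an MBD6 antibody. Only the 4 CLIP samples, through their peak lists, were analysed here, and the inputs were not used as samples in their own right. Among 12 markers of mES cells, 6 had a Flag-MBD6 region (Pou5f1, Sox2, Nanog, Zfp42, Sall4 and Dppa5a), and a gene without a peak may still be expressed.

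MBD5 and MBD6 are methyl-CpG-binding-domain proteins and partners of PR-DUB, the deubiquitinase complex that removes ubiquitin from Lys119 of histone H2A (H2AK119ub). 5-Methylcytosine (m5C) is a modification of DNA and also of RNA, where NSUN-family enzymes install it and TET enzymes oxidize it. In CLIP, RNA crosslinked to a protein is recovered with that protein, trimmed and sequenced, so that a peak marks a stretch of RNA that was bound or lay close to the protein. RNase T1, the nuclease used here, cuts single-stranded RNA after G.

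Depth differed between the proteins. The peak lists gave an estimated 478790 and 500143 reads for the Flag-MBD5 libraries and 983918 and 1111742 for the Flag-MBD6 libraries, a ratio of 2.14. The libraries held 5362 and 5388 Flag-MBD5 peaks and 9218 and 9587 Flag-MBD6 peaks. Fewer Flag-MBD5 peaks on these regions through lower depth and through weaker binding of MBD5 cannot be told apart in the full set, nor can binding and the abundance of an RNA. Within regions of at least 20 mean reads, the reads of the 2 Flag-MBD6 libraries differed by less than sampling noise, with a chi-square per degree of freedom of 0.641 over 797 MBD6-only regions and 0.556 over 3893 other regions. The Flag-MBD6 libraries were therefore counted as 1 sample, although their regions had to be peaks in both. This comparison was not made for the Flag-MBD5 libraries. No p-value is given, and intervals cover counting error only. Regions are not replicates.

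The first bases of leading regions are shown as examples of the sequence at their 5′ ends. Each sequence runs 5′ to 3′ on the transcript, from GENCODE M21 transcripts on the build mm10. The capital is the base just before the 5′ end of the region, and the lower-case letters are the 29 nt that follow. The first 6 are the annotated coding regions with the highest mean rank of fold enrichment, where the fold is the signal at the summit over the local background.
Thoc2, exon 34 of 39, chrX:41806913-41807132, minus strand: Taaggagagagaaatggacaagaaagattt
Rbm33, exon 15 of 19, chr5:28394025-28394235, plus strand: Caaggttatatcgcttaaagatagaggagc
Map7d3, exon 4 of 16, chrX:56817197-56817380, minus strand: Gcaattggaagaaaaacaccgtaaactgaa
Zfp280c, exon 3 of 19, chrX:48578315-48578499, minus strand: Gaatgtgaagaagaagagttggaaccatgg
R3hdm1, exon 3 of 27, chr1:128153269-128153484, plus strand: Gaaacaatgaaggatttggaggcagaaatg
Clock, exon 19 of 23, chr5:76231306-76231491, minus strand: Gcggacacggatgatagaggcaaatattca
The next 2 are the regions with the best mean rank of fold in Chd9 and in Asxl1, which are described below.
Chd9, exon 6 of 40, chr8:90976929-90977131, plus strand: Gatcaaatcgacaaattaagaggaaaaaat
Asxl1, exon 11 of 12, chr2:153397819-153398040, plus strand: Gacactgtggatcaagagacaaaggatcag

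MBD6-only regions were weak peaks. Their median was 16 reads at the summit in Flag-MBD6 replicate 1 (quartiles 13 to 21, range 7 to 251) and 17 in replicate 2 (quartiles 14 to 23, range 7 to 248). Regions with a Flag-MBD5 peak in 1 library had medians of 20 and 22 reads, and regions with a peak in both had 35 and 38. The median fold enrichment was 9.62 and 10.0 in MBD6-only regions and 17.1 and 17.6 in regions with a Flag-MBD5 peak in both libraries. MBD6-only regions were also narrower, at a median of 168 bp against 195 bp for all other regions.

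**Figure D1:**
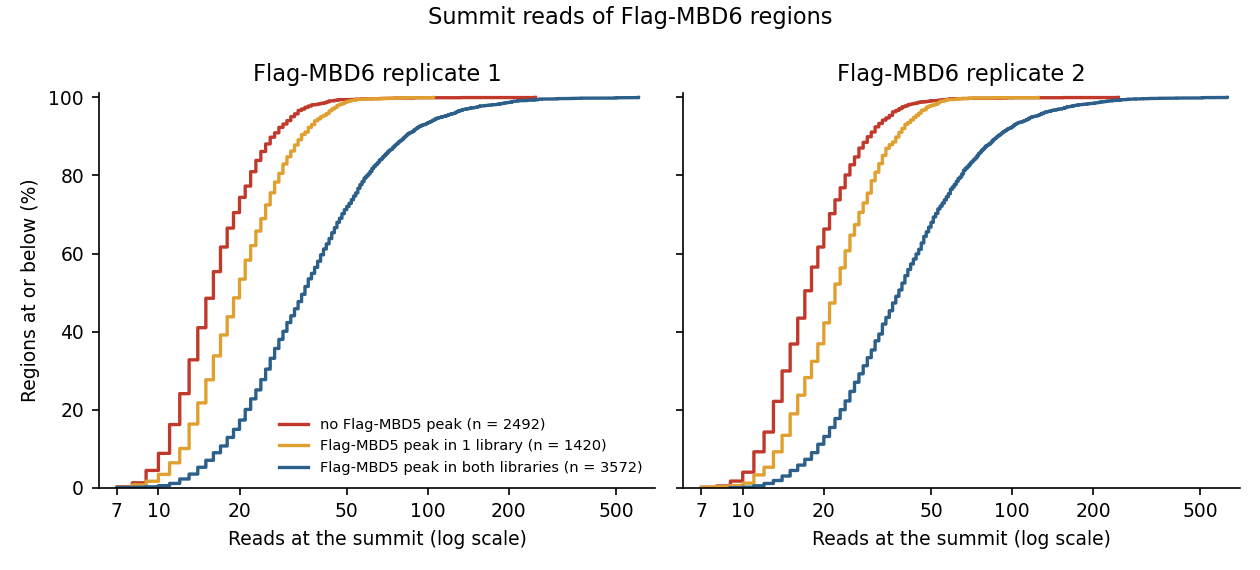
Cumulative share of Flag-MBD6 regions (y axis, %) at or below a number of reads at the summit (x axis, log scale) in each Flag-MBD6 library, for regions with no Flag-MBD5 peak, with a peak in 1 library and with a peak in both. In both libraries the 2492 MBD6-only regions lie to the left, with medians of 16 and 17 reads against 35 and 38 for regions with a Flag-MBD5 peak in both libraries.

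The share of MBD6-only regions fell with strength. Of 1263 regions with under 15 mean reads in the Flag-MBD6 libraries, 887 (70.2%) were MBD6-only. The share was 52.8% at 15 to under 20 reads (808 of 1531 regions), 30.9% at 20 to under 30 reads (615 of 1992) and 6.75% at 30 reads or more (182 of 2698). Scaled to the mean depth of the Flag-MBD5 libraries, MBD6-only regions had a median of 7.72 reads, against 14.0 for the other regions. The median peak of each Flag-MBD5 library had 16 reads, and 86 MBD6-only regions (3.45%) reached that number after scaling, against 2082 of the other regions (41.7%). The weakest Flag-MBD5 peaks had 5 reads. After scaling, 2023 MBD6-only regions (81.2%) had at least 6 reads, against 4870 of the other regions (97.6%).

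**Figure D2:**
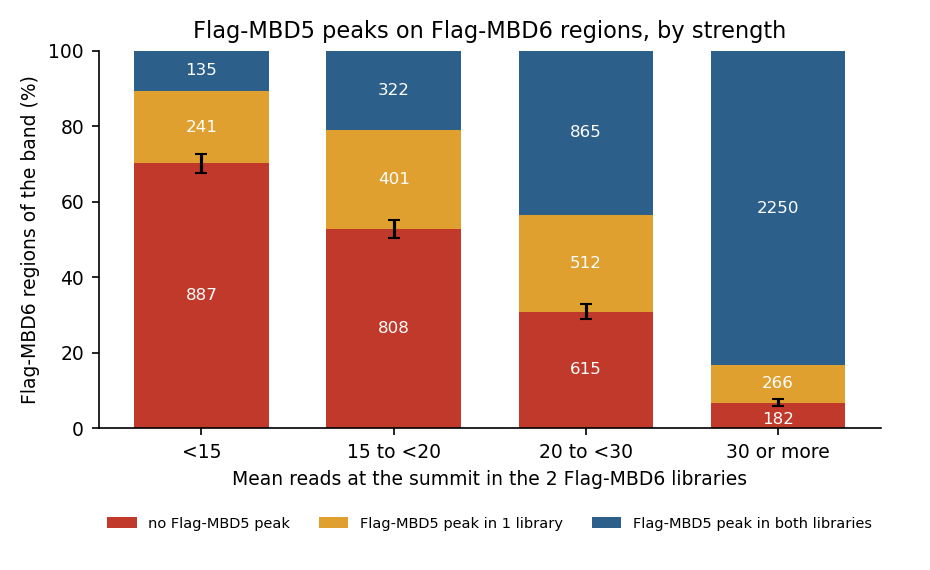
Share of Flag-MBD6 regions (y axis, %) with no Flag-MBD5 peak, a peak in 1 library or a peak in both, in 4 bands of mean summit reads (x axis). Numbers are regions and error bars are 95% Wilson intervals of the MBD6-only share, which goes from 70.2% in the weakest band to 6.75% in the strongest.

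Few MBD6-only regions remained strong at the depth of the Flag-MBD5 libraries. After scaling, 32 (1.28%) had at least 20 reads, against 1484 of the other regions (29.7%). Of these 32, 21 lay on a local background more than 4 times the lowest of the library, and 5 lay on the mitochondrial chromosome. By class, 14 were in coding exons, 6 on long non-coding RNA (lncRNA) exons, 4 on small RNAs and 4 in intergenic sequence. A fold of at least 10 in both libraries was reached by 14 of them.

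The 5 MBD6-only regions with the most reads had low folds. A region on Gm26917, a lncRNA annotation, at chr17:39844941-39845115 had 251 and 248 reads in the 2 libraries at folds of 5.69 and 5.50. The mitochondrial minus strand, opposite to most mitochondrial genes, held a region at positions 11905 to 12079 with 132 and 154 reads at folds of 3.03 and 3.28. A second minus-strand region at positions 13068 to 13332 had 87 and 100 reads. On the plus strand, mt-Nd5, a subunit of respiratory complex I, had 89 and 95 reads, and mt-Cytb, the cytochrome b of complex III, had 76 and 91. These 5 regions had a background between 29.9 and 80.0 times the lowest, so that their read numbers were high and their enrichments were not.

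The MBD6-only regions with the best folds were a different set. The best was an intergenic region at chr9:100941451-100941774 on the minus strand, with 43 and 48 reads and folds of 27.9 and 30.8. Thoc2, a subunit of the THO complex that couples transcription to mRNA export, had 39 and 53 reads at folds of 26.2 and 32.7. Rbm33, an RNA-binding protein, had 43 reads in each library at folds of 27.3 and 26.0. In all 3 the background was close to the lowest of the library. Map7d3, a microtubule-associated protein, had 36 and 45 reads at folds of 24.3 and 28.9. Zfp280c, a zinc-finger protein, had 35 and 42 reads. Clock, a transcription factor of the circadian oscillator, had 37 and 36 reads, and R3hdm1 had 37 and 41. Ccnl1, a cyclin linked to pre-mRNA splicing, had 33 and 44 reads in exon 11 of 11. The 10 were completed by introns of Lpar1, a lysophosphatidic acid receptor, with 36 and 45 reads, and of Ube2v2, a ubiquitin-conjugating enzyme variant, with 34 and 36. Each of these 10 regions had 33 to 53 reads in both libraries.

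To ask where in the transcriptome these regions lay, each region was assigned a class 15 nt inside its 5′ end on its own strand. Most MBD6-only regions were coding: 2014 of 2492 (80.8%), against 3963 of 4992 other regions (79.4%), a difference whose interval included 0 (+1.43 points, 95% Newcombe interval -0.504 to 3.32). The interval lay above 0 with equal peaks (3.29 points) and without Flag-MBD5 replicate 1 (1.91) or replicate 2 (4.23), and the difference was 0.115 without Flag-MBD6 replicate 1 and -0.121 without replicate 2. The coding share was 84.4% with a Flag-MBD5 peak in 1 library and 77.4% with a peak in both, so MBD6-only regions lay between the 2 groups. The differences from these groups were -3.62 points (-6.02 to -1.14) and 3.44 points (1.36 to 5.49). Introns were the class that differed most upward. They held 127 MBD6-only regions (5.10%) and 51 of the other regions (1.02%), a difference of 4.07 points (3.22 to 5.04). 3′ UTRs (41 regions, 1.65% against 0.901%), lncRNA exons (24 regions, 0.963% against 0.501%) and exons of non-coding isoforms of coding genes (24 regions, 0.963% against 0.300%) were also more frequent, with intervals above 0. 5′ UTRs (38 regions) and intergenic sequence (61 regions) were not distinguished from the other regions at this number.

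Small RNAs and pseudogenes were less frequent among MBD6-only regions. Small RNAs, mostly snoRNAs, which guide RNA modification, and snRNAs of the spliceosome, took 33 MBD6-only regions (1.32%) against 323 of the other regions (6.47%), a difference of -5.15 points (-5.96 to -4.31). Of the 33, 17 were snoRNAs and 9 were snRNAs, and all 17 regions on scaRNAs had a Flag-MBD5 peak. Pseudogenes held 130 MBD6-only regions (5.22%) and 419 others (8.39%), a difference of -3.18 points (-4.31 to -1.98), which was -1.81 without Flag-MBD5 replicate 1 and -4.95 with equal peaks. Reads on pseudogenes are shared with their parent genes, since up to 10 loci per read were allowed and 1 was reported, so the locus of these regions is uncertain.

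**Figure D3:**
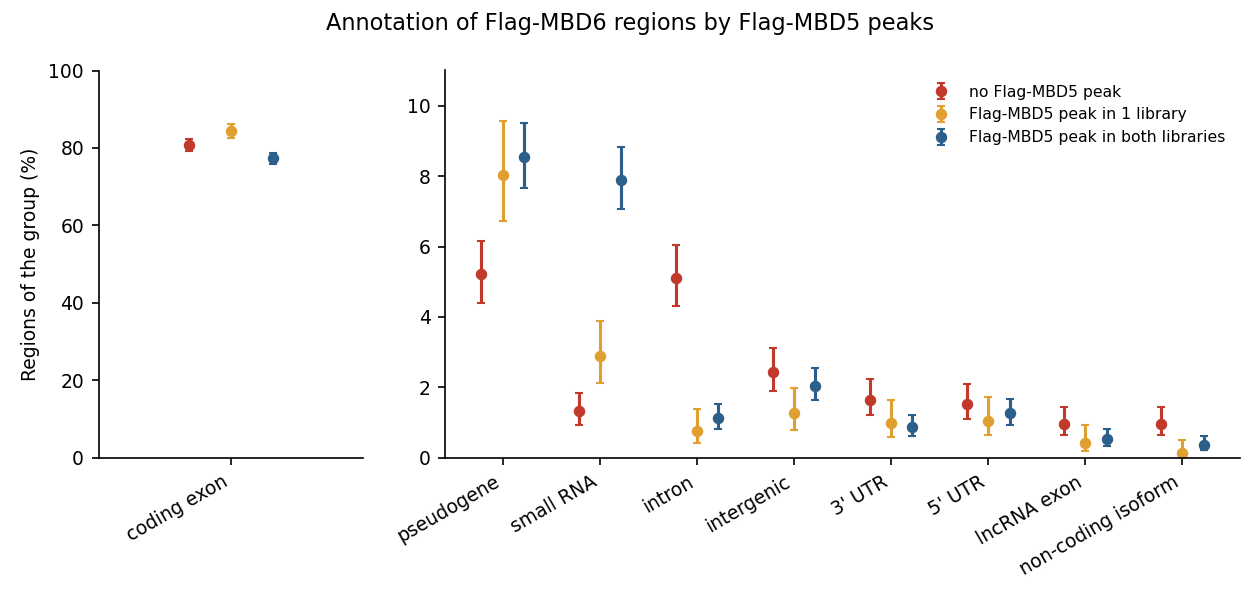
Share of Flag-MBD6 regions in each annotation class (y axis, %, with 95% Wilson intervals), by Flag-MBD5 peaks. The axis of coding exons runs to 100% and that of the other classes to 11%. Introns hold 5.10% of MBD6-only regions against 0.775% and 1.12% of regions with a Flag-MBD5 peak in 1 or both libraries, and small RNAs rise from 1.32% through 2.89% to 7.89%.

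The classes also differ in strength, so each was compared within bands of mean summit reads. The intron difference stayed above 0 in each of the 4 bands: 3.51 points under 15 reads (50 MBD6-only regions), 4.75 at 15 to under 20 (44), 3.23 at 20 to under 30 (27) and 2.42 at 30 or more (6), with every interval above 0. Read in the other direction, 71.3% of the 178 intronic Flag-MBD6 regions were MBD6-only, whereas the share of all regions at the same read bands was 45.9%. Small RNAs were below the other regions in the 3 weaker bands, and in the strongest band the interval included 0 (-4.08 points, -6.68 to 0.239). Of 356 small-RNA regions 9.27% were MBD6-only, against 19.6% from their read bands. Pseudogenes showed the same order, with 23.7% against 36.2% from their bands, and lncRNA exons the opposite, with 49.0% of 49 regions against 22.4%. Of 3′ UTR regions, 47.7% (37.4 to 58.1) were MBD6-only, against 39.1% from their bands. Their difference had an interval above 0 only at 20 to under 30 reads. On exons of non-coding isoforms, 61.5% (45.9 to 75.1) were MBD6-only, against 35.5%, with an interval of the difference above 0 only at 15 to under 20 reads. The bands match reads but not local background. Of the 24 MBD6-only regions on lncRNA exons, 4 lay on Malat1. Background reached 67.5 times the lowest on Gm26917 and 21.7 times on Malat1.

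**Figure D4:**
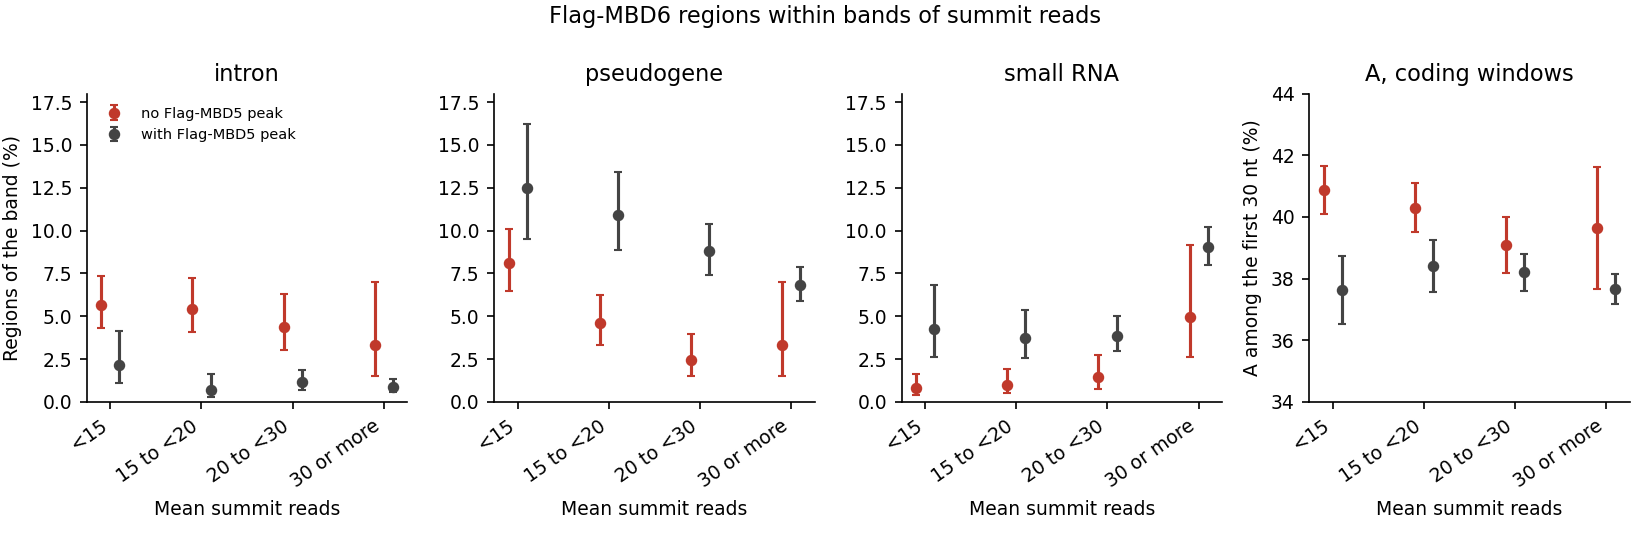
MBD6-only regions and the other Flag-MBD6 regions compared within 4 bands of mean summit reads (x axis). The first 3 panels give the share of the band in introns, pseudogenes and small RNAs (%, 95% Wilson intervals), and the last gives the mean A content of the first 30 nt of coding windows (%, axis from 34 to 44, 95% interval of the mean). Intronic shares of MBD6-only regions lie above the others in each band, by 2.42 to 4.75 points.

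The 127 intronic MBD6-only regions lay in 105 genes, 116 of them in protein-coding genes. They had a median of 15 and 17 reads at folds of 9.84 and 10.1, whereas the 51 other intronic regions had 27 and 29 reads. Intronic MBD6-only regions lay further from exons than the other intronic regions, in a comparison not matched for reads. Their median distance to the nearest exon was 2686 bp, against 1406 bp for the others, and 13 of 127 (10.2%) lay within 200 bp of an exon, against 22 of 51 (43.1%). In 123 of the 127 the far end of the region was intronic as well, against 40 of the 51 others. The 2 with the best mean rank of fold were Lpar1 at chr4:58483278-58483977 (700 bp wide) and Ube2v2 at chr16:15572587-15572862. Asxl2, a PR-DUB subunit, had an intronic region at chr12:3477093-3477320 with 22 and 27 reads at folds of 14.3 and 16.6. Intron sequence was not used here, and up to 10 loci per read were allowed for these regions too.

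Intronic MBD6-only regions recurred within genes. A pair or more was found in 16 genes, which held 38 of the regions, and in 8 of these genes all of them began within 5000 bp of each other (20 regions). The 3 regions in Ube2v2 spanned 727 bp and had 13 to 34 reads in replicate 1 and 13 to 36 in replicate 2. Those of Magi3, a scaffold protein of cell junctions, spanned 1473 bp with 10 to 13 and 11 to 14 reads. In Swt1, an RNA endonuclease, 3 regions spanned 1687 bp with 11 to 15 and 13 to 23 reads, and in Cul2, a cullin scaffold of ubiquitin ligases, 3 spanned 1984 bp with 10 to 28 and 15 to 33 reads. Catsperg1, Cenpp, Rap1gds1 and Slc38a1 had 2 regions each, within 566 to 768 bp. Neighbouring regions of 1 intron may come from the same RNA and are not independent.

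Ranked by fold, the 2 leading MBD6-only regions of each other transcript class had 20 to 47 reads per library. Regions with more reads and lower folds lay in the same classes, such as Leng8 in 3′ UTRs with 52 and 61 reads at folds of 5.66 and 5.72. In 5′ UTRs, Tbp, the TATA-binding protein, had 27 and 30 reads at folds of 17.4 and 18.3, and Zfp322a had 20 and 25. In 3′ UTRs, Nfib, a transcription factor, had 28 and 42 reads at folds of 19.0 and 27.0, and Purb, a single-stranded nucleic acid-binding protein, had 30 and 31. Platr27, a lncRNA expressed in pluripotent cells, led its class by fold, with 42 and 47 reads at folds of 22.0 and 19.5. The next by fold was Gm17491 with 23 and 31 reads. Among small RNAs, n-R5s127, a 5S ribosomal RNA annotation, had 24 and 38 reads and Gm25321, annotated among the snRNAs, had 31 and 27. These 2 have many near-identical copies in the genome, and which copy the reads came from is uncertain. The pseudogenes Gm13416 (33 and 32 reads) and Gm16546 (30 and 30 reads) share this limit. Outside genes, the next region after that on chromosome 9 was chr4:92106870-92107047, with 30 and 35 reads.

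Sequence at the 5′ end was next compared, because RNase T1 leaves fragments that begin after G. Among 2220 MBD6-only regions on annotated transcripts, G preceded the 5′ end in 74.4% and C in 20.5%. Among 4595 other regions the shares were 73.2% and 19.8%. The differences were +1.23 points for G (-1.02 to 3.42) and +0.646 for C (-1.36 to 2.71), and both intervals included 0, as they did within each read band. For G the interval lay above 0 with the 5′ ends of Flag-MBD6 replicate 1 (3.45 points) and without Flag-MBD6 replicate 1 (1.959) or replicate 2 (2.59).

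The first 30 nt of MBD6-only regions were richer in A and poorer in C. In coding exons, A made up 40.1% of 1935 windows (SD 10.3) and 37.9% of 3747 other windows (SD 10.3), a difference of 2.21 points (95% interval 1.65 to 2.78). C made up 18.7% against 20.6%, a difference of -1.85 points (-2.36 to -1.34). Over windows of all transcript classes the A difference was 3.19 points (2.65 to 3.74) and the C difference -1.958, and without Flag-MBD6 replicate 2 they were 1.95 and -1.23. In coding windows G and T did not differ beyond their intervals (-0.339 and -0.0251 points). Over windows of all transcript classes T was lower by -0.881 points (-1.28 to -0.485). CpG is the dinucleotide that methyl-CpG-binding domains are named for. Its ratio of observed to expected was 0.556 in MBD6-only coding windows and 0.605 in other coding windows. Within read bands the A difference of coding windows was 3.24 points under 15 reads and 1.90 at 15 to under 20. The intervals of the 2 stronger bands included 0 (0.876 and 1.97 points).

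Averaged over genes, the A difference within genes was smaller than its standard error. In 657 genes that held coding windows of both kinds, A averaged 39.6% in the MBD6-only windows and 39.1% in the others. The difference was 0.449 points with a standard error of 0.462. MBD6-only windows were higher in 329 genes, lower in 301 and equal in 27. Pooled over these genes, which gives genes with more windows more weight, the values lay further apart. A was then 40.0% in 1023 MBD6-only windows (standard error 0.327) and 38.9% in 1634 others (0.259). The whole coding sequence of the genes carried part of the difference, with 29.9% A for MBD6-only regions and 29.3% for the others. Windows were richer in A than their coding sequence in both groups, by 10.2 and 8.59 points. These differed by 1.59 points (1.04 to 2.14).

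In codons, GAA and GAG encode glutamate and AAA and AAG encode lysine. In the reading frame, MBD6-only windows held more GAA (10.5% of codons against 9.04%) and AAA (5.61% against 4.67%) and fewer GAG (5.73% against 6.29%), and AAG was nearly equal (8.27% against 8.29%). The letters GAAGA occurred on the transcript strand in 50.1% of MBD6-only coding windows and 44.9% of the others, a difference of 5.16 points (2.42 to 7.89). AAGAA occurred in 40.1% against 34.9%, and GAGGA in 15.0% against 17.2%. GAAGA and AAGAA overlap in GAAGAA, which occurred in 22.6% against 19.9%. These motifs were picked after the values had been seen. Of the 8 windows shown above, those of Map7d3 and Zfp280c hold GAAGA.

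Coding MBD6-only regions lay in ordinary exons. The median exon was 168 nt long in transcripts of 17 exons, against 180 nt and 18 exons for the others. The median position was 29.7% of the transcript from its 5′ end, against 31.5%. Exons of at least 1000 nt held 15.1% of MBD6-only and 13.9% of other coding regions. Among chromosomes with over 200 regions, the MBD6-only share ranged from 26.7% on chromosome 15 to 42.9% on chromosome 16.

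The MBD6-only regions fell in 1753 of the 3760 genes with a Flag-MBD6 region. Of these, 935 (53.3%) held no Flag-MBD5 peak and 818 held one elsewhere, so that 1306 of the regions (52.4%) lay in genes with a Flag-MBD5 peak at another site. Most genes had 1 MBD6-only region (1315 genes), 377 had 2 or 3 and 61 had 4 or more. The count per gene grows with transcript length, abundance and depth. Counts by gene are therefore a description, and the share of genes without a Flag-MBD5 peak depends on the rule itself.

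Chd9, a chromodomain helicase that remodels chromatin, had the most, with 8 of its 9 Flag-MBD6 regions MBD6-only. They lay in 8 different exons from exon 4 to exon 37 of 40, with 14 to 37 reads in replicate 1 and 16 to 28 in replicate 2. The strongest, in exon 6 at chr8:90976929-90977131, had 37 and 28 reads at folds of 23.6 and 13.8. Folds in the gene reached down to 4.84 in replicate 2 at exon 32, where the background was 4.07 times the lowest.

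Cntrl, the centrosomal protein centriolin, had 7 regions, all MBD6-only, and no Flag-MBD5 peak in the gene. Reads were 32 and 31 in exon 7, 28 and 31 in exon 13, 18 and 31 in exon 25, 13 and 24 in exon 18, 16 and 17 in exon 19, 11 and 18 in exon 23 and 18 and 17 in exon 37. The exon 7 and exon 13 regions had the most reads in replicate 1, and in replicate 2 they shared the highest value with exon 25. In 6 of the 7 the background was at its lowest.

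The other 6 of the 8 genes with the most regions followed. Ankrd26, a protein of the centriole appendages, had 7 of 10 regions MBD6-only with 12 to 16 and 9 to 19 reads. Kif15, a mitotic kinesin, had 6 of 10, among them exon 31 with 37 reads in each library at folds of 23.6 and 22.5. Ccdc18 had 6 of 6 with 11 to 22 and 17 to 30 reads and no Flag-MBD5 peak. Ccdc88a, an actin-binding protein also called girdin, had 6 of 9 with 14 to 27 and 15 to 22 reads. Cep290, a protein of the ciliary transition zone, had 6 of 7 with 12 to 22 and 15 to 26 reads. Rock2, a kinase of the actomyosin system, had 6 of 12 with 10 to 21 and 14 to 25 reads. In Rock2 the other regions had Flag-MBD5 peaks in 1 library (1 region) or both (5 regions), so peaks of both kinds lay on the same RNA.

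Genes with at least 3 Flag-MBD6 regions, all MBD6-only, and no Flag-MBD5 peak in the gene numbered 32. Besides Cntrl and Ccdc18 they included Ash1l, a histone H3 methyltransferase, with 5 regions, and Ehbp1, an adaptor of endocytic traffic, with 5. Upf3b and Smg1, both of nonsense-mediated mRNA decay, had 4 regions each, as did Ddx5, an RNA helicase, and Brwd1. Dgcr8, the partner of Drosha in microRNA processing, had 3. Regions of 1 gene share the abundance of its RNA. Of the 3760 genes with a Flag-MBD6 region, 996 held MBD6-only regions alone, and 36 had at least 3 regions, all MBD6-only. Their share of all genes with at least 3 Flag-MBD6 regions is not given, so the count of 32 is a description.

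The gene lists below were counted against the share of 33.3% over all regions and against the share that regions of the same read bands had. PR-DUB and its partners had 14 Flag-MBD6 regions in 5 of its 11 listed genes, and 8 were MBD6-only (57.1%, 32.6 to 78.6, against 37.7% from the bands). Asxl1, the adaptor that activates the deubiquitinase, had 3 of 5, and Asxl2 had 2 of 5. Ogt, the O-GlcNAc transferase, had 2 of 2, with 23 and 36 reads in exon 22 and 14 and 17 in exon 12. Hcfc1, a chromatin cofactor that OGT processes, had 1 of 1, with 12 and 15 reads, and held a peak of Flag-MBD5 replicate 2 elsewhere. Bap1, the deubiquitinase itself, had 1 region with a peak in both Flag-MBD5 libraries. The Asxl1 regions had 31 and 22 reads and 21 and 29 reads in exon 11, and 16 and 13 reads in exon 2. The folds of the exon 11 regions differed between the libraries, at 16.3 and 8.45 in the region shown above and at 11.1 and 5.07 in its neighbour. No Flag-MBD6 region was found on Mbd5 or Mbd6.

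The cytosine methylation list held genes that write, oxidize or read it on DNA or RNA, and also paraspeckle proteins. It had 44 regions in 12 of 27 genes and 6 were MBD6-only (13.6%, 6.40 to 26.7, against 28.8% from the bands). The share was 25% without Flag-MBD5 replicate 1, 34.1% without Flag-MBD5 replicate 2, 22.6% without Flag-MBD6 replicate 1, 24.1% without Flag-MBD6 replicate 2 and 4.35% with equal peaks, where the shares of all regions were 41.8% to 43.5% without a library and 16.7% with equal peaks. Tet1, a dioxygenase, had 2 of 11, with 22 and 27 reads in exon 11 and 23 and 16 in exon 13. Nop2, an rRNA m5C methyltransferase, had 2 of 5, with 22 and 20 reads in exon 9 and 15 and 19 in exon 2. Dnmt1, the maintenance DNA methyltransferase, had 1 of 7 with 16 and 16 reads. The 4 regions of Tet2 and the 4 of Nsun2, an RNA m5C methyltransferase, all overlapped a Flag-MBD5 peak in at least 1 library. The same held for the regions of Nono (3), Sfpq (2) and Pspc1 (3), the paraspeckle proteins of this list.

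Among other chromatin genes, the trithorax and SET-domain list had 27 of 60 regions MBD6-only (45.0%, 33.1 to 57.5, against 30.0% from the bands). Ash1l had 5 of 5, with 10 to 28 reads in replicate 1 and 11 to 33 in replicate 2, and Nsd1, a histone H3 methyltransferase, had 5 of 7 with 16 to 33 and 15 to 35. Setd2, the enzyme of H3K36 trimethylation, had 4 of 8, and Kmt2c, an enhancer methyltransferase, had 3 of 8. Polycomb genes, which place or bind H2AK119ub and H3K27me3, had 11 of 29 (37.9%, against 34.4%), with 2 of 5 in Suz12 and 1 of 6 in Ezh2. Remodelling ATPases and their partners had 34 of 137 (24.8%, against 24.6%), of which 8 were in Chd9 and 5 in Atrx. SMC and cohesin genes had 25 of 76 (32.9%, against 32.4%), with 4 of 5 in Smc5.

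Lists of RNA and protein homeostasis had 17.5% to 30.0% MBD6-only regions. RNA helicases had 21 of 70 (30.0%, 20.5 to 41.5, against 26.8% from the bands), with 4 of 4 in Ddx5. Splicing factors, SR proteins among them, had 25 of 88 (28.4%, 20.04 to 38.6, against 19.3%), spread over 18 genes, with 3 of 8 in U2surp. Giant ubiquitin ligases and deubiquitinases had 19 of 69 (27.5%, 18.4 to 39.0, against 33.3%). Without Flag-MBD5 replicate 2 their share was 42.0%, where the share of all regions was 43.1%. The intervals of these 3 lists included the share of all regions, and that of the splicing factors lay above their share from the bands. Translation initiation factors had 19 of 86 (22.1%, 14.6 to 31.9, against 26.5%) and chaperones 11 of 63 (17.5%, 10.0 to 28.6, against 26.9%). Ribosomal proteins had 14 of 67 (20.9%, 12.9 to 32.1, against 23.4%). Without Flag-MBD6 replicate 1 their share was 37.3%, where the share of all regions was 43.5%. Basement membrane genes had none of 27 regions (upper bound 12.5%, against 23.8%). When each library was left out they had 3.70% to 16.2%, the most without Flag-MBD6 replicate 2. The shares of all regions were then 41.8% to 43.5%. All 10 regions of Fn1 and all 9 of Lamc1 had a Flag-MBD5 peak in both libraries.

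Long nuclear RNAs and pluripotency factors had few regions. Long nuclear RNAs had 7 of 14 MBD6-only (50.0%, 26.8 to 73.2, against 13.0% from the bands). The bands do not match local background, which was 21.7 times the lowest at the Malat1 region with 75 and 72 reads. In Malat1, a nuclear speckle RNA of 1 exon, 4 of 9 regions were MBD6-only, with 33 and 35, 75 and 72, 54 and 58, and 42 and 39 reads at folds of 4.35 to 7.77, and the other 5 had a Flag-MBD5 peak in 1 (2 regions) or both libraries (3 regions). Meg3, an imprinted lncRNA, had 1 of 3, with 47 and 55 reads at folds of 11.3 and 13.6. Neat1, the scaffold of paraspeckles, and Snhg11 had 1 of 1 each. Of 13 regions on pluripotency genes 4 were MBD6-only (30.8%, 12.7 to 57.6, against 14.2%), on Nanog (34 and 41 reads), Pou5f1 (23 and 31), Tfcp2l1 (30 and 22) and Dppa5a (16 and 24).

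**Figure D5:**
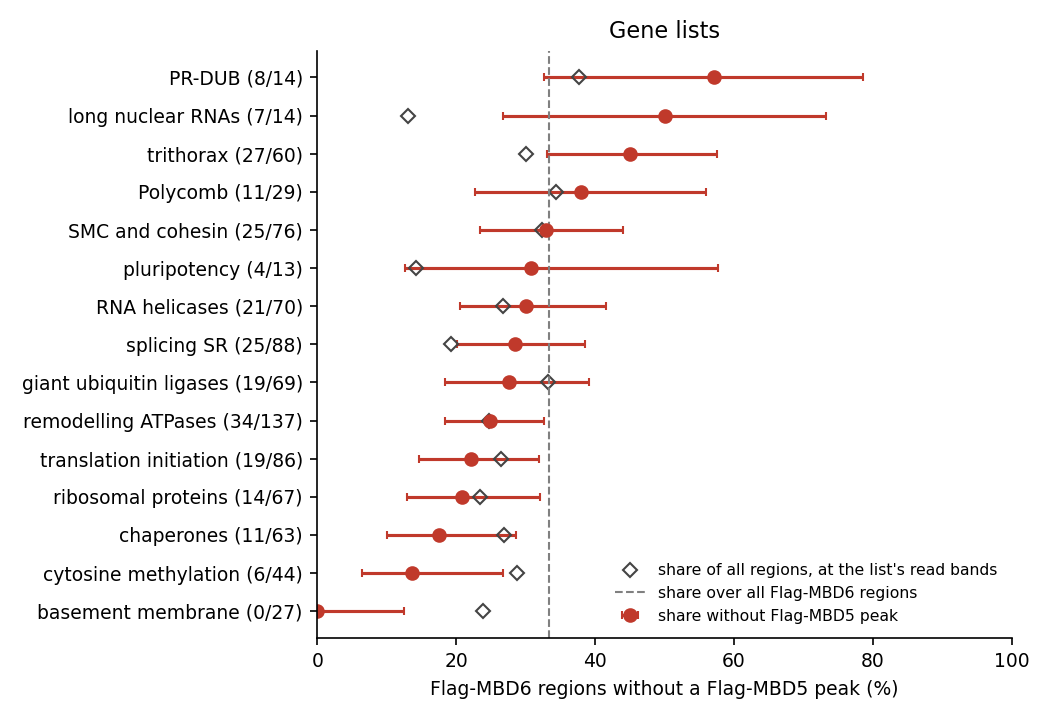
Share of MBD6-only regions among the Flag-MBD6 regions of each gene list (points, %, with 95% Wilson intervals; MBD6-only and all regions in brackets), beside the share that all regions of the same read bands had (diamonds) and the share over all regions (dashed line, 33.3%). PR-DUB is highest at 57.1% of 14 regions and basement membrane lowest at 0 of 27.

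MBD6-only regions overlap no Flag-MBD5 peak by the rule, so their distances are a description, and distances of other regions are not given. A Flag-MBD5 peak lay within 200 bp on the same strand for 79 regions (3.17%) and within 1000 bp for 270 (10.8%). Within 10000 bp the number was 959 (38.5%). The median distance was 27248.5 bp, and none was overlapped on the opposite strand. Nearest inside the threshold were regions of Nav2, 52 bp from a Flag-MBD5 peak with 17 and 18 reads, Apc (56 bp, 25 and 19 reads) and Serbp1 (57 bp, 19 and 24 reads). Just outside, Nipbl overlapped a Flag-MBD5 peak by 17 bp, with 14 and 13 reads in the Flag-MBD6 libraries and 9 and 8 in the Flag-MBD5 libraries. Ybx1 overlapped by 19 bp, with 17 and 11 Flag-MBD6 reads and 12 in Flag-MBD5 replicate 2, and Kif23 by 34 bp, with 24 Flag-MBD6 reads in each library and 9 in Flag-MBD5 replicate 2.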

How the data were processed

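Per the labels, the precipitated RNA was digested with RNase T1, size-selected on a gel and made into small RNA libraries. The authors clipped and filtered the reads, collapsed identical ones, kept those above 15 nt, removed rRNA reads and aligned the rest to mm10 with Bowtie 1.0.0 (at most 3 mismatches and 10 loci, 1 reported). They split alignments by strand with SAMtools 1.16.1 and called peaks per library and strand with MACS2 version 2 (extension 150 bp, up to 5 duplicates, q threshold 0.01). Names and versions are those of the submitters' processing notes and the study's methods. The deposited columns are a score (10 times −log10 q, cut to an integer), a fold (the ratio of summit signal and local background), −log10 p and −log10 q from MACS2, and another column with the summit position.

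The peak lists hold no read counts. Reads at each summit and the background were solved as the whole number and Poisson rate that give the deposited fold and −log10 p, which was possible for 100% of peaks (1.30% to 2.39% had more than 1 solution). Library totals were estimated from the lowest background. Classes, genes and sequences came from GENCODE M21 on mm10, in the order coding, UTRs, small RNA, pseudogene, lncRNA, non-coding isoform, intron, intergenic. A share "from the bands" gives each region the MBD6-only share of its band of mean reads, and does not match local background. Wilson and Newcombe 95% intervals cover counting error only, as PCR copies are not independent molecules. Python 3.11.15, numpy 2.4.6, scipy 1.17.1 and pandas 2.3.3 were used, and the solver, overlaps and intervals were tested on simulated data.

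Members and 15 gene lists were chosen with earlier results of these data known. Named regions were the 10 best by fold, the 5 best by reads, the 8 genes with the most regions, the 2 best of each class, those on PR-DUB and cytosine methylation genes, and the 3 on each side of the overlap threshold. Other genes were named as members of a list or count. The closing section gives the effect of 23 alternatives, on the overlap, thresholds, peak numbers, strength, class position, sequence window and libraries. A genome sequence and repeat annotation were not used here, and some named regions and sequences are not reported here.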

Additional observations from a re-analysis of the deposited data

How the results depend on the processing

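Of 117 alternative values of the main results with all libraries kept, 80 stayed within their interval (counts within 1.5 times), 37 moved and none changed a called sign. Values with a library left out are given separately below and are not in this count. The number of MBD6-only regions was 749 (16.7%) with 5362 peaks from each library, against 2492 (33.3%). A reciprocal overlap of 50% gave 36.4%. The cause of a change was not tested unless named. Differences below are MBD6-only minus other regions, in points.

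With equal peaks the pseudogene difference was -4.95. From the weakest to the strongest read band, small RNA was -3.47, -2.74, -2.39 and -4.08, and A content over windows of all transcript classes was 3.92, 2.43, 1.46 and 1.76 (3.19 in all bands). In the 3 weaker bands pseudogenes were -4.38, -6.35 and -6.35. C content was -2.48 in the weakest band and -0.738 in the strongest. In the 2 weaker bands C before the 5′ end was 2.85 and 2.78 and G was -5.11 and -2.77. In the strongest band coding was -3.69 and intron 2.42. Against regions with both Flag-MBD5 peaks, coding was 3.44, small RNA -6.57 and A 3.84. Against those with 1, coding was -3.62, small RNA -1.56, A 1.62 and C content -1.27. At the midpoint coding was -0.592, small RNA -2.14 and intron 6.05. Without pseudogenes coding was -1.39. A window of 50 nt gave A 2.38. With the 5′ ends of Flag-MBD6 replicate 1, C before was -1.59 and G 3.45. The coding share and the base before the 5′ end changed sign among these values. Their main intervals included 0. For the coding share, intervals lay above 0 with equal peaks (3.29) and without Flag-MBD5 replicate 1 (1.91) or 2 (4.23). The coding interval also lay above 0 against regions with both Flag-MBD5 peaks (1.36 to 5.49). It lay below 0 against those with 1 (-6.02 to -1.14). For G, intervals lay above 0 with the 5′ ends of Flag-MBD6 replicate 1 and without Flag-MBD6 replicate 1 (1.959) or 2 (2.59).

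Leaving out each library in turn gave 3178 to 4169 regions, and shares between 41.8% and 43.5%. By the rule, the number could not fall without a Flag-MBD5 library. Without a Flag-MBD6 library all peaks of the other counted as regions, and the number was 4169 without replicate 1 and 3852 without replicate 2. Ranges were 3.01 to 4.19 for intron, -0.121 to 4.23 for coding, -5.47 to -4.85 for small RNA, -3.41 to -1.81 for pseudogene, 1.95 to 3.22 for A, -1.9992 to -1.23 for C, 1.61 to 2.59 for G before the 5′ end and -0.626 to 0.408 for C before it. Without Flag-MBD5 replicate 1 the pseudogene difference was -1.81 and the PR-DUB share 85.7%, where the share of all regions was 42.5%. Without Flag-MBD5 replicate 2 the cytosine methylation share was 34.1%, where that of all regions was 43.1%. Of 90 values of the gene lists, which include those with a library left out, 69 stayed within their interval and 21 moved. No paired analysis was possible because the results come from no test over libraries. After scaling to the Flag-MBD5 depth, 3.45% of MBD6-only regions reached 16 reads, the median of a Flag-MBD5 peak. At least 6 reads were reached by 81.2%, and the weakest Flag-MBD5 peaks had 5.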
